A study of Homo sapiens with 6 samples.

Results

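The 10 genes described here encode proteins that restrain the RAS-ERK pathway, and were taken by name from the 20037 protein-coding genes of the RefSeq annotation on chromosomes 1 to 22, X and Y. They are 5 phosphatases, DUSP1, DUSP2, DUSP4, DUSP5 and DUSP6, the Sprouty genes SPRY1, SPRY2 and SPRY4, and the SPRED genes SPRED1 and SPRED2. MYC chromatin immunoprecipitation sequencing (ChIP-seq), which maps where the transcription factor MYC sits on DNA, was carried out in MIAPaCa2, an established human cell line of pancreatic ductal adenocarcinoma. All cells had been kept in DMEM without serum for 48 hours. For the next 3 hours one group had serum-free conditioned medium (CM) of primary cancer-associated fibroblasts, and the other had new DMEM, again free of serum. There were 2 immunoprecipitated libraries per condition, and a further 2 samples, the inputs, were not analysed here. One cell line was used, and the labels name no separate cultures, so the spread between the libraries of 1 group may be technical. Peak lists do not measure RNA, so the labelled cell type could not be checked against its markers.

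Growth factor receptors switch on RAS, which activates the kinases RAF, MEK and ERK in turn. ERK induces genes whose products then shut the pathway down. DUSP proteins of this group remove the activating phosphates from MAP kinases, Sprouty proteins interfere with signalling between receptors and RAS or RAF, and SPRED proteins bring the RAS inactivator neurofibromin to the membrane. MYC, with its partner MAX, binds the E-box sequence CACGTG among other sites, and ERK signalling is known to stabilise the MYC protein.

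After fibroblast medium, MYC peaks lay at 8 of the 10 genes in both CM libraries, and at 3 in both DMEM libraries. A gene was counted when a peak touched the 1000 bp on either side of one of its outermost annotated ends. DUSP1, DUSP2 and SPRED1 had a peak in all 4 lists. SPRY1, SPRY2, SPRY4 and SPRED2 had one in both CM lists and in 1 DMEM list, and DUSP5 in both CM lists alone. DUSP6 had a peak in CM library 1 alone, and DUSP4 had none in any list. For comparison, 39.1% of all protein-coding genes had a peak in both CM libraries, 15.9% in both DMEM libraries, 15.9% in all 4, 12.3% in both CM and 1 DMEM library and 11.0% in CM alone. By library, 9 and 8 of the 10 genes had a peak in CM libraries 1 and 2 (43.9% and 40.9% of all genes), and 4 and 6 in DMEM libraries 1 and 2 (16.8% and 28.1%). The count of 8 in both CM libraries rests on the CM lists alone, so leaving out a DMEM library cannot change it. Without DMEM library 1, 6 genes in place of 3 had a peak in every remaining list (27.3% of all genes). The count in CM alone, 1 with all libraries, was 2 without CM library 2 (15.3% of all genes) and 2 without DMEM library 1 (11.8%). It was 4 when DMEM library 2 was left out (22.4%): DUSP5, SPRY1, SPRY2 and SPRED2. With only the top 4657 peaks of every list, 2 members remained in both CM lists, DUSP2 and SPRED1, against 18.0% of all genes. In both DMEM lists so shortened 3 remained, DUSP1, DUSP2 and SPRED1, against 13.9%.

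The lists held 15304 and 12797 peaks in CM and 4657 and 7652 in DMEM, with median peak widths of 691 and 593 bp against 430 and 431.5 bp. Each peak has a score of the authors', given below as a percentile within its list, where 100 is the highest score. What the score measures is not given in the sources used here. Read depth is unknown, so a missing peak means that none passed the authors' threshold, and the longer CM lists reach further down in rank. Percentiles from lists of different length are set side by side and show no change on their own. With 2 against 2 libraries, an exact two-sided permutation test cannot give a p below 0.333.

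The promoter sequences of the genes with the highest-ranked and the most shared peaks are shown first. That of DUSP6, whose single peak at a gene end ranked low, is added for contrast. Each is the 250 bases before the annotated start, 5′ to 3′, from RefSeq on GRCh38.p14. Capitals mark the E-box CACGTG and, in DUSP1, the palindrome TGACGTCA, the consensus of the cyclic AMP response element bound by CREB and ATF factors.
DUSP2, chr2:96145441-96145690, minus strand: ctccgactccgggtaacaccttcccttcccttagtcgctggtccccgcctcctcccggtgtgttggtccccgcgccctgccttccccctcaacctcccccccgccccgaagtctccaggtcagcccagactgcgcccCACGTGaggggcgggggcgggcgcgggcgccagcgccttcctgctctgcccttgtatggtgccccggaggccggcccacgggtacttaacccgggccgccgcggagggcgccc
DUSP1, chr5:172771196-172771445, minus strand: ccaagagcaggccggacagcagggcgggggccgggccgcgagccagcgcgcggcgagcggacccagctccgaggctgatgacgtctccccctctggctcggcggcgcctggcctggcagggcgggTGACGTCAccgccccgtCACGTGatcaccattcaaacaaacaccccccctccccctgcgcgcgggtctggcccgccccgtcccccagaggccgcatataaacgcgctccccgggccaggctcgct
SPRED1, chr15:38252586-38252835, plus strand: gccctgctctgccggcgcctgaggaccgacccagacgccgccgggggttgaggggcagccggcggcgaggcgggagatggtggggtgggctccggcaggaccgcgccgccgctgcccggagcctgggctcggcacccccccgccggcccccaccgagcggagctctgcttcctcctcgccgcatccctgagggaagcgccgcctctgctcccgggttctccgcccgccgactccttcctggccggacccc
DUSP6, chr12:89352502-89352751, minus strand: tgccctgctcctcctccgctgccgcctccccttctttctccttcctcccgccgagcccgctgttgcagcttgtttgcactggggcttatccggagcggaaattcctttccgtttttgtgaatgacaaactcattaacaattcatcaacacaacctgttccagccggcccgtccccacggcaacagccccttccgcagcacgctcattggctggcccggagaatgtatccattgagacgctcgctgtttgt

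Among the 10 members, both phosphatase genes with a peak in all 4 lists had an E-box close to the start. CACGTG began 113 bases before the start of DUSP2 and 108 bases before that of DUSP1, where TGACGTCA began 125 bases before the start and 9 bases separated the motifs. The search covered both strands of 12 start windows of 300 bases, 250 before and 50 after the start, for the 8 members the table holds; DUSP4 and DUSP5 had no entry. CACGTG was found at these 2 of 8 members, against 10.9% of the 15843 protein-coding genes with a window. TGACGTCA was found at 1 of 8 members, against 3.00% of genes. The variant CACGCG, or CGCGTG on the other strand, was found at 0 of 8, against 18.1%. The motifs did not overlap one another in these windows. Over all genes, 31.1% of 1727 genes with CACGTG had a peak in all 4 lists, and 15.2% of 14116 without it. A match is a run of letters and not a measured site.

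DUSP2 encodes a nuclear phosphatase of ERK and other MAP kinases, and its peak ranked highest of the 10 genes in each of the 4 lists. The gene lies on chromosome 2 at 96143169 to 96145440, on the minus strand. The score of the peak across its start was 576 in CM library 1, 669 in CM library 2, 107 in DMEM library 1 and 403 in DMEM library 2. These scores correspond to the 97.2 and 98.4 percentiles of the CM lists and the 80.2 and 97.3 percentiles of the DMEM lists. DMEM library 1 was the low one, while DMEM library 2 ranked between the CM libraries. In CM the mean percentile was 97.8 ± 0.834 (SD, n = 2) and in DMEM 88.8 ± 12.1 (SD, n = 2), and their difference of 9.05 points was close to the 8.58-point spread between libraries. With DMEM library 1 left out it was 0.489 points, and with DMEM library 2 left out 17.6. The peak was 1989 and 2023 bp wide in CM and 1044 and 1384 bp in DMEM. In all 4 lists it covered the gene start and the E-box shown above.

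DUSP1 encodes an immediate-early phosphatase that acts on JNK and p38 as well as ERK. It lies on chromosome 5 at 172768096 to 172771195, on the minus strand. The highest-scoring peak near its start had a percentile of 63.0 in CM library 1, 38.2 in CM library 2, 35.5 in DMEM library 1 and 50.3 in DMEM library 2. The conditions overlapped in rank, since DMEM library 2 lay between the CM libraries. The peaks differed in position. In CM they ran from 641 bp before to 915 bp after the start in library 1, and from 488 bp before to 618 bp after it in library 2. In DMEM they lay wholly inside the gene, from 286 to 861 bp after the start in library 1 and from 212 to 536 bp after it in library 2. The E-box and the cyclic AMP response element were therefore covered by a peak in both CM lists and in no DMEM list, whose nearest peaks ended 389 and 315 bp from the E-box. DUSP1 peaks were 1557 and 1107 bp wide in CM and 576 and 325 bp in DMEM, and CM peaks were wider over the whole lists too. The part of peak width in this difference was not tested.

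**Figure D1:**
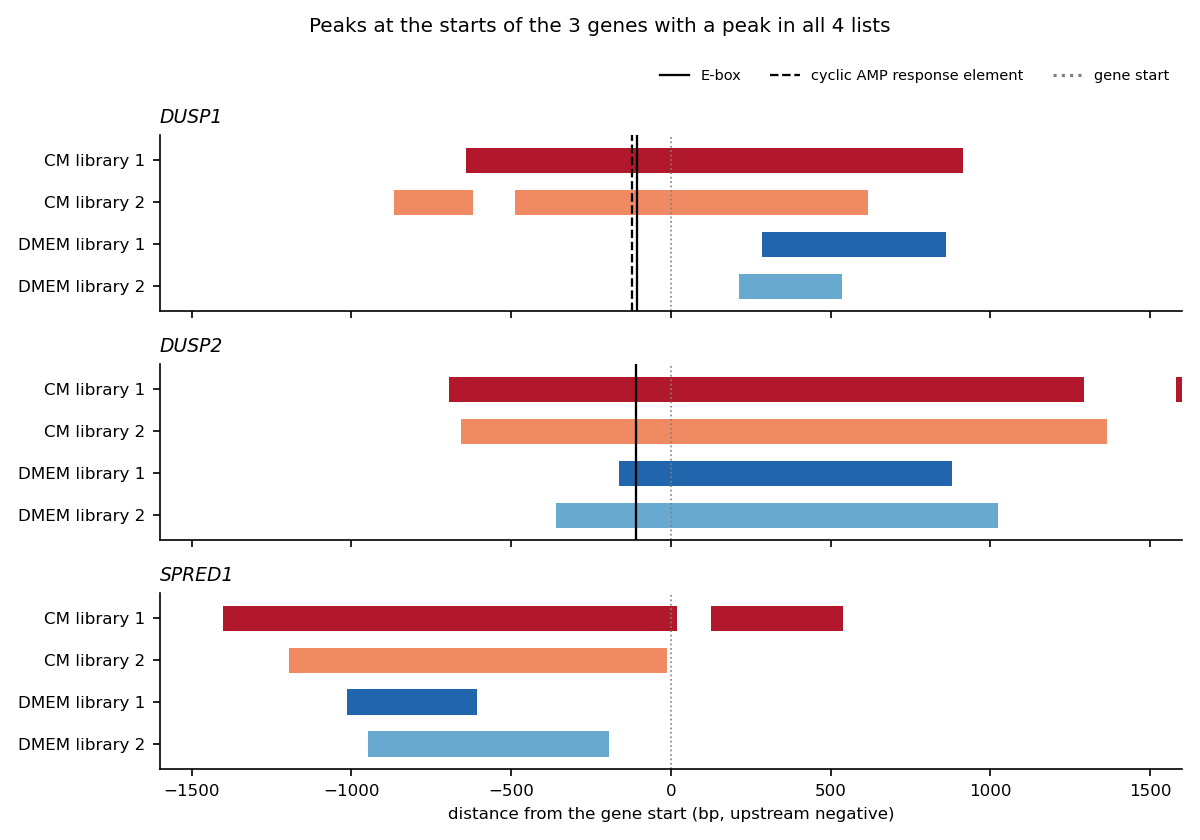
Peaks around the starts of DUSP1, DUSP2 and SPRED1. The horizontal axis gives the distance from the gene start in bp (upstream negative), each row is 1 peak list, bars span the called peaks, and vertical lines mark the E-box, the cyclic AMP response element and the start. The E-box of DUSP2 lies inside the peak of every list, while at DUSP1 the peaks of the CM lists cover it and those of the DMEM lists begin 286 and 212 bp inside the gene.

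Further peaks followed DUSP1 towards and past its 3′ end, mostly in CM library 1. That list had 6 peaks in the gene or within 20000 bp of it, CM library 2 had 3, DMEM library 1 had 1 and DMEM library 2 had 2. At least as many were found at 2.98% of protein-coding genes in CM library 1 and at 14.5% in CM library 2. One interval, 4557 to 5092 bp from the start, was shared by CM library 1 and DMEM library 2. Another, 12776 to 13524 bp from the start and beyond the gene, was shared by both CM lists at percentiles of 36.0 and 9.9, and lies within the noncoding RNA locus LOC101928093. The CM peaks at the DUSP1 start also came within 1000 bp of the end of the noncoding RNA locus LOC105377730.

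The other phosphatases had low-ranked peaks or none. DUSP5, a nuclear phosphatase specific for ERK, lies on chromosome 10 at 110497907 to 110511533. The best end peak had a percentile of 36.8 in CM library 1 and 9.0 in CM library 2, and neither DMEM list had a peak within 55 kb. These 2 CM peaks did not overlap. A weaker CM library 2 peak, at percentile 1.3, overlapped that of CM library 1 just outside the low-coordinate end. The CM library 1 peak also came within 1000 bp of the end of the divergent noncoding gene DUSP5-DT.

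DUSP6, a cytoplasmic ERK phosphatase often used as a readout of ERK activity, lies on chromosome 12 at 89347235 to 89352501. CM library 1 had peaks 442 to 852 bp and 1181 to 1525 bp before its start, at percentiles of 10.4 and 17.9. They lie within the readthrough locus POC1B-DUSP6. The nearest peak of CM library 2 was 172.9 kb away, and those of the DMEM libraries 1311 and 1205 kb. The sequence shown above lies outside both CM peaks, and is 57.2% G or C with 16 CG dinucleotides. DUSP4, a nuclear phosphatase on chromosome 8 at 29333064 to 29350684, had its nearest peaks 441.2 and 441.7 kb away in CM and 732.1 and 442.7 kb away in DMEM. In CM library 1, DUSP2 had the highest and DUSP6 the lowest percentile of the 9 genes with an end peak.

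**Figure D2:**
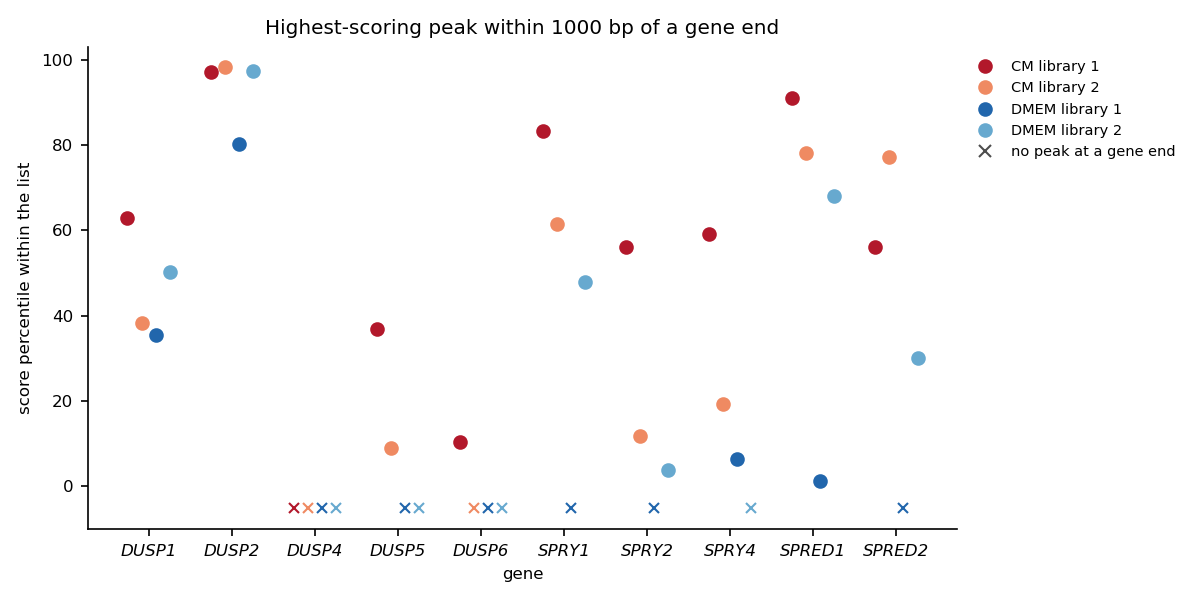
Score percentile (vertical axis, within each peak list) of the highest-scoring peak within 1000 bp of a gene end, for each of the 10 genes and 4 lists; crosses mark lists without such a peak. DUSP2 is at or above 80.2 in all 4 lists, SPRED1 spans 1.2 to 91.0, and DUSP4 has crosses alone.

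All 3 Sprouty genes had peaks in both CM lists and in 1 DMEM list each. SPRY1, on chromosome 4 at 123396795 to 123403760, had its peak inside the gene, where it covered the second of 2 listed starts in CM library 1 and ended 120 bp short of it in CM library 2. Its percentile was 83.3 in CM library 1, 61.4 in CM library 2 and 47.9 in DMEM library 2, and DMEM library 1 had no peak in the gene or within 20000 bp. The DMEM library 2 peak was 394 bp wide and ran from 428 to 821 bp after the outer start, inside the 1950 bp of the CM library 1 peak. A second SPRY1 interval, 21577 to 22468 bp from the outer start and beyond the 3′ end, was called in both CM lists, at percentiles of 39.8 and 41.7, and in neither DMEM list.

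SPRY2, on chromosome 13 at 80335976 to 80341126, had 3 peaks in each CM list. They fell into 3 intervals shared by both lists: 1134 to 2070 bp before the outer start, around that start, and 1592 to 2334 bp after it. The upstream interval was at percentiles of 25.5 and 35.0, the one at the start at 56.1 and 11.8, and the one inside the gene at 30.1 and 27.4. DMEM library 2 had 1 peak, at percentile 3.8, from 325 to 560 bp before the outer start, which falls inside the CM library 2 peak from 322 to 651 bp before it. DMEM library 1 had none. The inner interval lay 125 and 190 bp from the most downstream of the 3 listed starts of SPRY2.

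SPRY4, on chromosome 5 at 142310430 to 142325021, had the most fragmented pattern of the 10 genes. CM library 1 had 9 peaks in the gene or within 20000 bp, from 3661 bp before to 5846 bp after the outer start, and CM library 2 had 5. At least as many were found at 0.654% and 3.45% of protein-coding genes. The widest, in CM library 1, was 2703 bp wide, nearly all of it upstream of the outer start, at percentile 59.1. The percentiles of the other 8 lay between 1.3 and 51.6, and those of the 5 in CM library 2 between 2.3 and 32.9. DMEM library 1 had a single peak at percentile 6.4, 384 to 660 bp before the outer start, and DMEM library 2 had none. SPRY4 was the only member with a gene-end peak in DMEM library 1 and not in DMEM library 2, although that list is the longer. The peaks at the outer start also lay within 1000 bp of the end of the noncoding gene SPRY4-AS1. The listed start of SPRY4 is 142324247, inside the gene, and within 1000 bp of it no DMEM list had a peak.

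**Figure D3:**
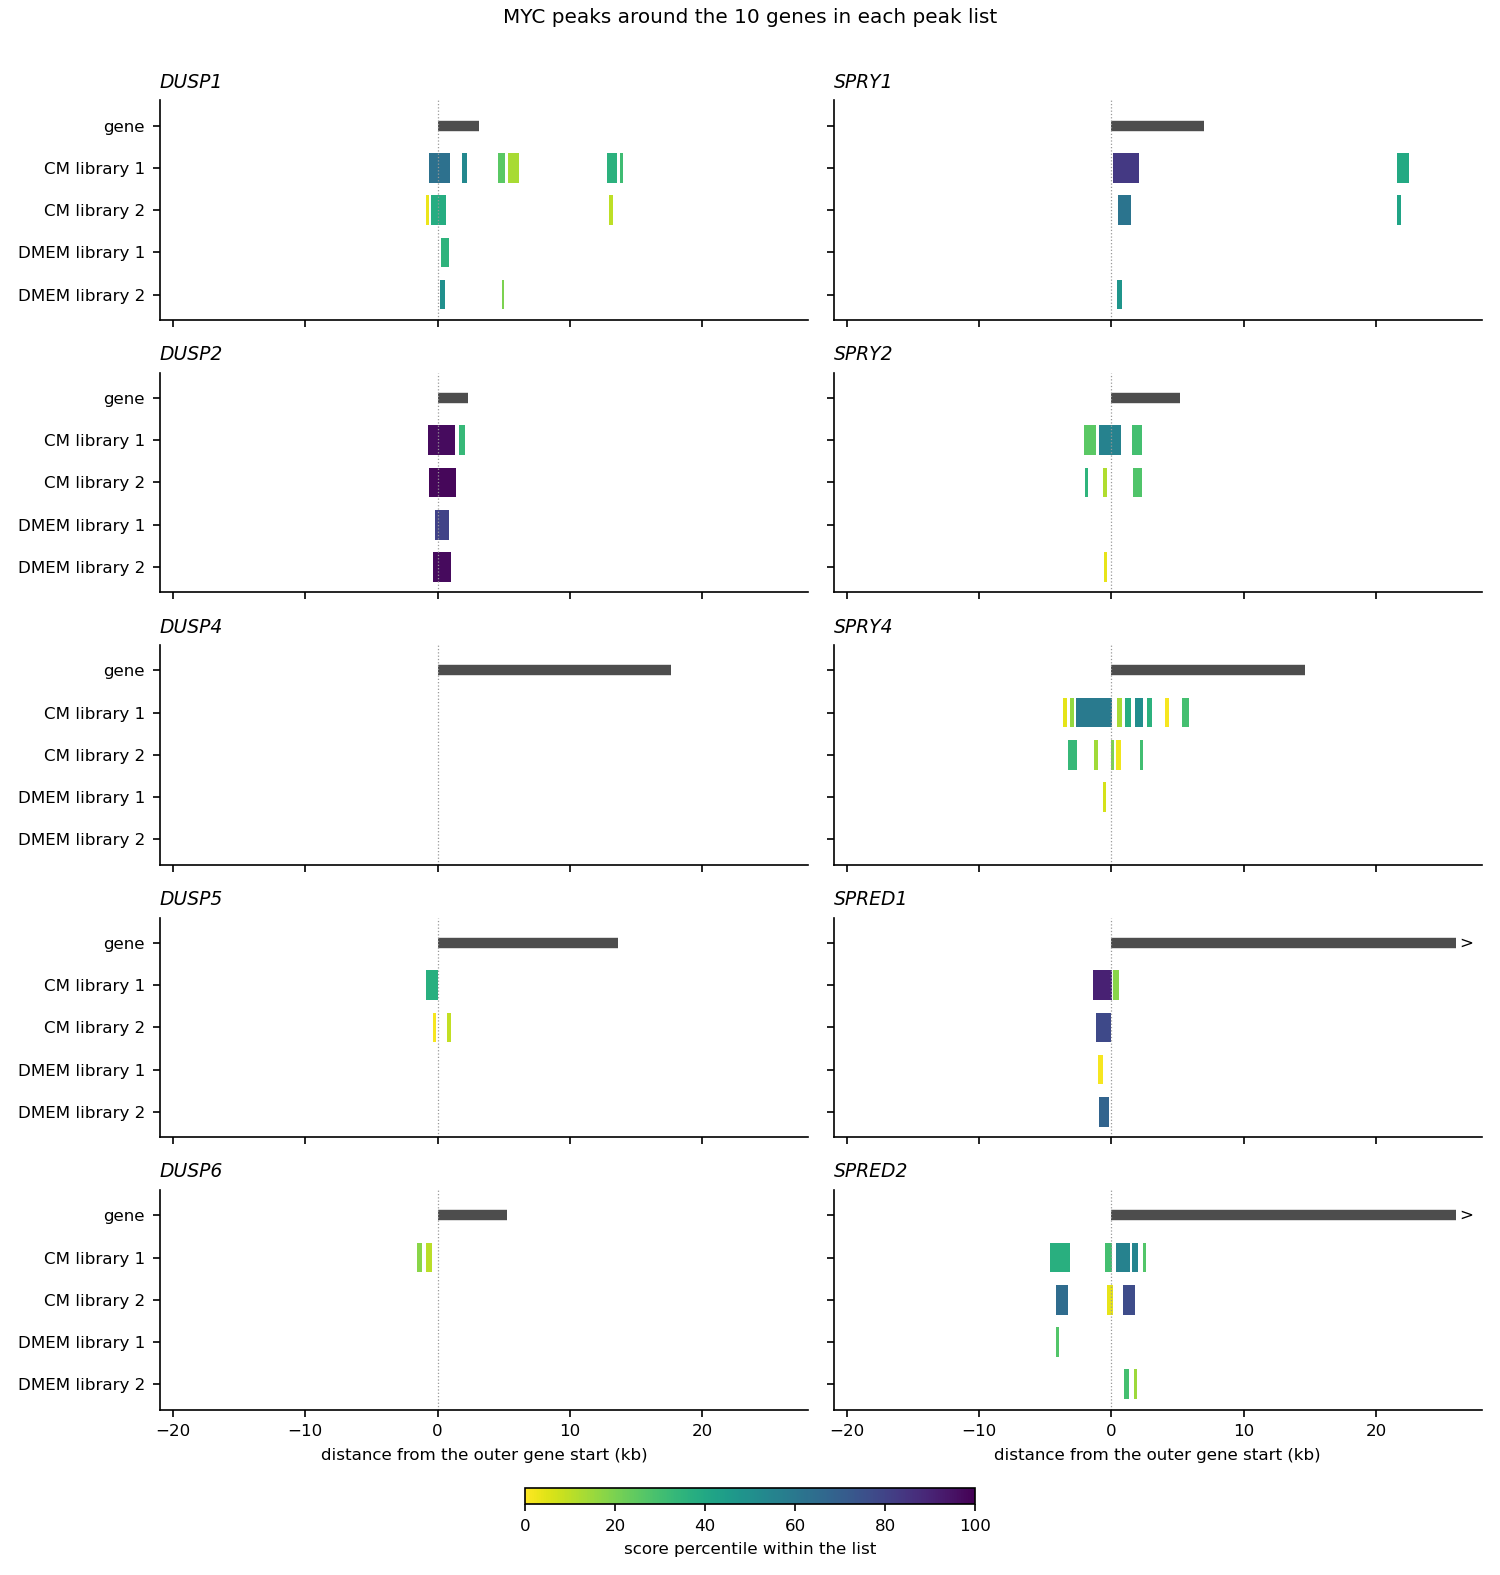
Peaks in each of the 4 lists around the 10 genes. The horizontal axis is the distance from the outer gene start in kb, the grey bar is the gene, and the colour of a peak gives its score percentile within its list; for DUSP4 and DUSP5, whose strand the tables do not give, the axis starts at the low-coordinate end, and 4 SPRED2 peaks about 65 kb inside the gene lie outside the panel. Most peaks lie within 6 kb of a start, SPRY4 has 9 of them in CM library 1, and DUSP4 has none.

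SPRED1, on chromosome 15 at 38252836 to 38357249, had its peak upstream of the start in all 4 lists. Its percentile was 91.0 in CM library 1, 78.0 in CM library 2, 1.2 in DMEM library 1 and 68.0 in DMEM library 2. Within these full lists of different length, both CM values were above both DMEM values, and DMEM library 1 was close to the threshold of its list. The mean was 84.5 ± 9.16 (SD, n = 2) in CM and 34.6 ± 47.2 (SD, n = 2) in DMEM, a difference of 49.9 points against a spread of 34.0. Leaving out DMEM library 1 made the difference 16.5 points, and leaving out DMEM library 2 made it 83.3. The peak ran from 1402 bp before to 19 bp after the start in CM library 1 and from 1195 to 12 bp before it in CM library 2. In DMEM it ran from 1013 to 607 bp before the start in library 1 and from 948 to 193 bp in library 2. The sequence shown above for SPRED1 is 78.4% G or C with 30 CG dinucleotides, against medians of 62% and 16 over 22199 windows, and holds none of the searched motifs. The CM library 1 peak covered all of it and that of CM library 2 all but the last bases, while the DMEM library 2 peak ended within it and the DMEM library 1 peak before it.

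SPRED2, on chromosome 2 at 65307175 to 65432599, had 8 peaks in CM library 1, 4 in CM library 2, 1 in DMEM library 1 and 2 in DMEM library 2. At least 8 and 4 peaks were found at 1.04% and 7.03% of protein-coding genes in CM libraries 1 and 2. SPRED2 is 125425 bp long, and these shares, like those given for DUSP1 and SPRY4, take no account of gene length. Its highest-scoring end peak was at percentile 56.1 in CM library 1, 77.2 in CM library 2 and 30.1 in DMEM library 2. That DMEM peak began 921 bp after the outer start and was so only just within the 1000 bp window. A separate interval across the outer start, from 517 bp before to 92 bp after it, was called in both CM lists and in no DMEM list. Its percentiles were 30.1 in CM library 1 and 3.8 in CM library 2. A further interval, 3168 to 4607 bp before the start, was called in both CM lists and in DMEM library 1, at percentiles of 36.8, 64.9 and 27.0. The 2 DMEM libraries thus marked different sites at SPRED2. Inside the gene, an interval 65902 to 66546 bp from the outer start was called in both CM lists, at percentiles of 54.5 and 41.7, and in no DMEM list. It came within 81 bp of the second listed start of SPRED2 in CM library 1 and within 239 bp in CM library 2. CM library 1 had another 2 peaks on the upstream side of that start.

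Counted over the 10 genes with 20000 bp on each side, the lists held 35 and 21 peaks in CM and 5 and 8 in DMEM, or 28 ± 9.90 and 6.5 ± 2.12 (SD, n = 2). At least 1 peak was found at 9 and 8 of the genes in CM and at 5 and 6 in DMEM, against 58.6%, 56.2%, 28.1% and 42.7% of all protein-coding genes. The CM counts were above the DMEM counts at a ratio of geometric means of 4.29, and the exact permutation test (two-sided) gave its smallest possible p, 0.333. The ratio was 2.34 over all peaks of the lists, and 2.20 over peaks in or near protein-coding genes. As shares of their lists the counts were 0.229% and 0.164% in CM and 0.107% and 0.105% in DMEM, a ratio of 1.83. The ratio of shares was chosen after seeing the data. In lists of equal length the counts were 3 and 4 in CM and 5 and 4 in DMEM, a ratio of 0.775 with an exact permutation p of 0.667. Peaks near the members were mostly low in rank, with a median percentile of 32.9 and 30.1 in CM and 27.0 and 39.0 in DMEM. The highest-scoring end peak of the members with one had a median percentile of 59.1 and 49.8 in CM and 20.9 and 49.1 in DMEM, over 9, 8, 4 and 6 genes. Over all protein-coding genes with a peak these medians were 69.3, 65.7, 59.8 and 60.4.

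**Figure D4:**
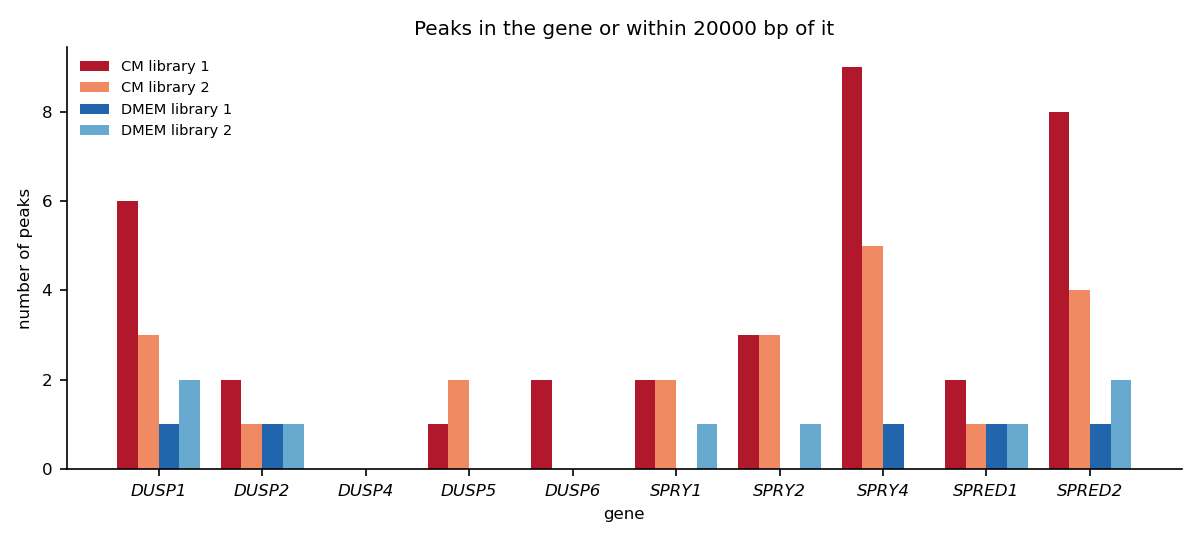
Number of peaks (vertical axis) in the gene or within 20000 bp of it, for each of the 10 genes and each of the 4 lists. SPRY4 and SPRED2 have the most, with 9 and 8 in CM library 1, no gene has more than 2 in a DMEM list, and DUSP4 has none.

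Merged over the 4 lists, the peaks near the members formed 34 intervals. Of these 3 were called in all 4 lists (8.82%, against 20.6% of all 16235 intervals) and 5 in both CM and 1 DMEM list (14.7% against 18.4%). Another 9 were called in both CM lists alone (26.5% against 21.8%), 16 in 1 CM list alone (47.1% against 36.0%) and 1 in 1 CM list and in DMEM (2.94% against 1.94%), while 0 were called in DMEM lists alone, against 1.22% of all intervals. The 3 in all 4 lists were those at the starts of DUSP1, DUSP2 and SPRED1, and for them a rank over the same 3343 intervals can be given in every list. DUSP2 was at percentiles of 87.3 and 93.9 of these intervals in CM and 73.3 and 93.9 in DMEM. SPRED1 was at 60.1 and 32.7 in CM and 0.82 and 38.7 in DMEM, so that CM library 2 was here below DMEM library 2. DUSP1 was at 7.04 and 3.23 in CM and 25.6 and 21.3 in DMEM, so that both CM values were below both DMEM values, with a difference of -18.3 points. Among all peaks of each list the DUSP1 difference was 7.75 points in the other direction, within the 14.4-point spread between libraries. It turned to -4.61 when CM library 1 was left out and came to 20.1 when CM library 2 was. Leaving out DMEM library 1 gave 0.349 points, and leaving out DMEM library 2 gave 15.2.

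Among 38 other genes of the pathway, 25 had an end peak in both CM libraries and 8 in both DMEM libraries, or 8 in all 4 lists, 9 in both CM and 1 DMEM list and 8 in CM alone. The shares of all genes given above apply here too. Without DMEM library 1, 15 of them had a peak in every remaining list, and without DMEM library 2, 15 had one in CM alone. The other MAP kinase phosphatase genes were mostly without end peaks. Of DUSP7, DUSP8, DUSP9, DUSP10 and DUSP16, DUSP7 alone had any within 1000 bp of an end. Its percentiles were 71.9 and 68.3 in CM and 46.1 and 47.9 in DMEM. With a window of 2500 bp, DUSP9 also had a peak in both CM lists and in no DMEM list. SPRY3 and SPRED3, the remaining members of their families, had no end peak. For these genes, unlike the 10 members, peaks up to 20000 bp away are not described. Of 12 other ERK-induced or feedback genes, 8 had a peak in both CM libraries. CCND1 (cyclin D1) had one in all 4 lists, ETV4, ETV5, ERF and TRIB1 in 1 DMEM list as well, and ERRFI1 (an inhibitor of EGF receptors), the receptor gene EPHA2 and PHLDA1 in CM alone.

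Of 19 genes of the RAS-ERK cascade and its partners, 16 had a peak in both CM libraries. Those with one in all 4 lists included NRAS, SHC1, SOS1, SOS2 and RASA1, led by NRAS at percentiles of 97.6 and 96.9 in CM and 92.6 and 97.6 in DMEM. The SHC1 peak also lay at the end of CKS1B, and that of SOS2 at the end of VCPKMT. ARAF, MAP2K2 and PTPN11 were among those with one in both CM and 1 DMEM library. The 5 in CM alone included NF1, at percentiles of 83.3 and 78.0, which encodes the neurofibromin that SPRED proteins recruit, and CBL, at 25.5 and 19.3, a ubiquitin ligase that Sprouty proteins bind. GRB2 and MAP2K1 were also among them, the latter with a peak shared with TIPIN.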

How the data were processed

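MYC ChIP-seq peaks were compared in 2 CM and 2 DMEM libraries of MIAPaCa2 cells, grouped by their titles. Per the submitters' processing notes, the build was GRCh38 and the tools included MACS2 2.1.1.20160309 and Bowtie2 2.3.4. Their settings and the controls used are not given in the sources here. The authors called peaks per library and deposited a whole-number score for each, at least 13, which was used only within its list. In the authors' common lists, used as an alternative, the deposited score was the mean of the named peaks in all 9901 CM and 3380 DMEM intervals.

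Gene positions and promoters came from RefSeq tables of GRCh38.p14; start and strand were taken from the promoter table, which held 8 of the 10 genes. Percentiles are average ranks within a list. The common intervals are overlapping peaks merged over the 4 lists. Overlaps were computed with Python 3.11.15, pandas 2.3.3 and numpy 2.4.6, and tested on simulated data with planted peaks. No set test was made. The members and the pathway lists were chosen with earlier results of these data known. All members are named, with the other pathway genes that had a peak in all 4 lists, up to 4 per list with peaks in CM alone by mean CM percentile, and genes of classes of 5 or fewer, the last chosen after their values were seen; some genes that this rule would name are not reported here. A neighbour is named where its end lies within 1000 bp of a peak. Alternatives varied the window, flank, peak midpoint, score minimum, list length, start definition, common lists and libraries left out.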

Additional observations from a re-analysis of the deposited data

How the results depend on the processing

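Without read counts, depth limits every missing peak. For these alternatives, shares of all protein-coding genes were computed only where they are given above. The other counts below show how the numbers moved and cannot be read against all genes. The number of members with a peak in CM alone, 1 in the report, was 2 with a window of 500 bp, 2 by peak midpoint, 0 with the outer start alone (DUSP5 has no listed start), 0 with a minimum score of 50, 0 in lists of equal length and 5 in the authors' common lists, where a single DMEM peak does not count. It ranged from 1 to 4 when each library was left out. Those in both CM libraries numbered 8, against 5 with a minimum score of 50, 2 in lists of equal length and 8 to 9 with a library left out. Those in both DMEM libraries and those in all 4 each numbered 3, against 1 and 1 with a minimum score of 50, and 3 to 6 for each with a library left out. Those in both CM and 1 DMEM library numbered 4, against 2 by midpoint and 0 in lists of equal length. Other pathway genes in both DMEM libraries and in all 4 each numbered 8, against 5 and 5 with a window of 500 bp and 8 to 15 for each with a library left out, and those in CM alone 8, against 9 to 15. In these ranges, a count in both libraries of a condition becomes that of its remaining list when a library of that condition is left out. It cannot change when a library of the other condition is left out. A count in all 4 is then taken over every remaining list.

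The ratio of 4.29 for peaks near the members was 0.775 in lists of equal length, 3.32 to 5.53 with a library left out, 4.06 and 4.21 with 10000 and 50000 bp, 7.75 with a minimum score of 50 and, chosen after seeing the data, 5.84 for base pairs covered. Without each library in turn the median percentile difference of DUSP1, DUSP2 and SPRED1, 9.05 points, ranged from 0.489 to 20.1. DUSP1 had no peak left in the CM lists of equal length, so no median was given there. With a replicate block, exchanging libraries only within a replicate number, the ratio was again 4.29, with an exact p of 0.5, the smallest that 2 pairs allow; the labels do not say that the numbers pair the libraries. Causes of these shifts were not tested.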
